A study of Xenopus tropicalis with 4 samples.

Results

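The animal cap is the roof of the blastocoel in a frog embryo, a sheet of prospective ectoderm that can be cut out and kept in simple saline. The baseline state of this tissue was read from the 2 libraries of the series that came from caps of Xenopus tropicalis embryos given the standard control morpholino oligonucleotide (MO), out of 4 libraries in all. Members were chosen by that label alone. The embryos were wild type, had been injected at the 1-cell stage with 22.5 ng of the control MO, and were raised at 25 °C in 1/9X MMR, an amphibian saline. Explants were taken as ectoderm and collected at Nieuwkoop-Faber stage 10.5, the early gastrula. RNA was isolated with Trizol, selected for poly(A) and made into NEBNext Ultra II libraries. The libraries are called control library 1 and 2. The labels do not say how many caps went into each, nor whether they came from separate clutches, so the spread between them may be technical.

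Cells of the cap at this stage are being divided between epidermis and neural plate. BMP signals promote the epidermal fate, and antagonists from the dorsal mesoderm (the organizer) protect the neural plate from them. Nodal and FGF signals can turn the same cells into mesoderm or endoderm, which is why isolated caps serve as a test tissue for inducers. Much of the RNA at this time was laid down by the mother during oogenesis, and the embryo's own genes have been active only since the midblastula transition.

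Expected counts summed to 29750009 in library 1 and 29800530 in library 2, spread over 18270 and 18242 genes with a count. Gene models of ribosomal RNA, which poly(A) selection depletes to a varying degree, took 28.3% and 34% of these counts. Outside them 21338216 and 19663762 counts remained, and a count of 0 allowed up to 3 counts, or 0.101 CPM (counts per 1000000 counts of the whole library). Levels are given in TPM (transcripts per 1000000, scaled for transcript length), always for library 1 and then library 2. For a transcript of 2300 to 2500 bases, 1 TPM was worth a median of 29.2 and 29 expected counts. With 1 group of 2 libraries no test could be made, and each count, level and share below describes this pair.

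A gene was called on when it reached 1 TPM in both libraries, off when it was below 0.1 TPM in both, and intermediate otherwise. By that rule 11538 of 21812 protein-coding genes (52.9%) were on, 4295 were intermediate and 5979 (27.4%) were off. Of the protein-coding genes, 3818 had no count in either library. Genes with a proper symbol were on in 10276 of 15554 cases (66.1%), and protein-coding genes known only by a LOC or MGC number in 1262 of 6258 (20.2%). Lists and families below were drawn up from symbols, so 66.1% is the nearer share to set beside their counts. The genes that were on had a median level of 22.3 TPM and a median deposited length of 2420 bases, against 1781 bases for the genes that were off. Levels had a wide main peak between 10 and 100 TPM, which held 6228 protein-coding genes and 32.3% and 32% of their TPM.

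**Figure D1:**
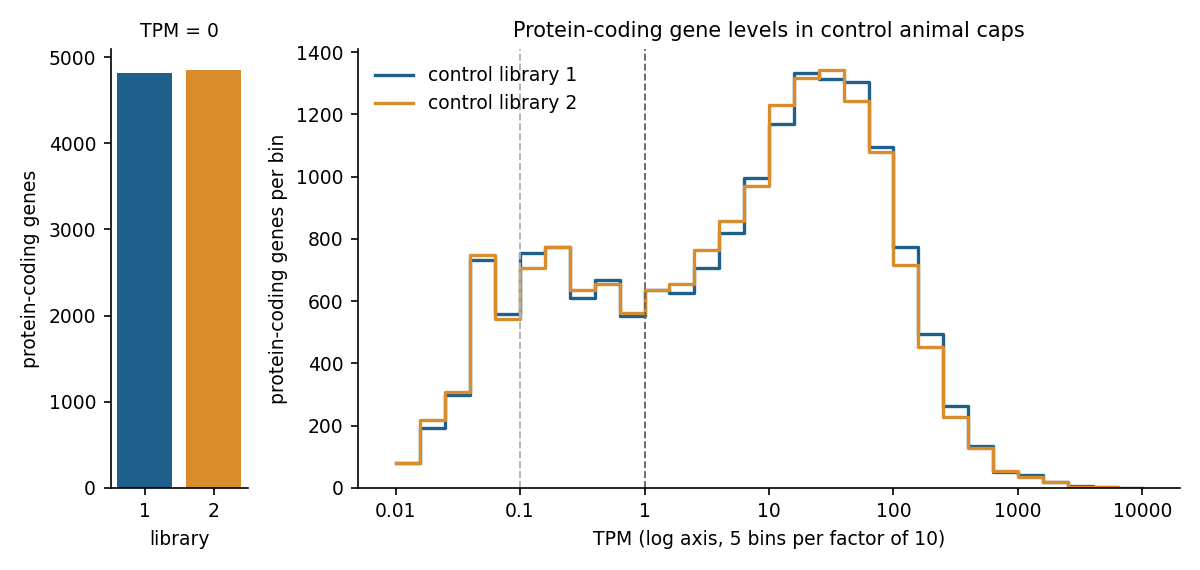
Number of protein-coding genes by level in the 2 control libraries: genes at exactly 0 TPM as bars on the left, and the others as a histogram on a log TPM axis on the right. Dashed lines mark 0.1 and 1 TPM, and the curves of the 2 libraries nearly coincide, with the main peak between 10 and 100 TPM.

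The message pool was spread over many genes. Outside ribosomal RNA, the 10 most abundant genes held 4.46% and 4.25% of TPM, the top 100 held 18.9% and 19.1%, and 879 and 862 genes were needed to reach 50%. Only 65 protein-coding genes had a mean of 1000 TPM or more, and together they held 15.2% of protein-coding TPM in each library. Their median length was 1527 bases, shorter than the 2480 bases of genes between 10 and 100 TPM. The largest share, 50.05% and 50.3%, came from 1650 genes between 100 and 1000 TPM.

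The most abundant messages encoded proteins that bind DNA, package chromatin or handle RNA. The gene with the highest mean was hmgb2, a high mobility group protein that bends DNA, at 5407 and 4434 TPM. Its relative hmgb3 was at 2934 and 2381 TPM, and hmgn1, which binds nucleosomes, at 1738 and 1448 TPM. All 7 genes of the HMG-box, HMGA and HMGN class were on (beside 66.1% of protein-coding genes with a symbol), from 252 TPM (hmga2) upwards. The class took 1.59% ± 0.169 of TPM (SD, n = 2). The acidic protein anp32c followed at 3121 and 2645 TPM, and the histone variant h2az1 stood at 2037 and 1733 TPM. Library 1 had the higher value for each of these 5 genes.

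Messages for RNA-binding proteins stood high, and splicing factors, hnRNPs and RBM proteins formed the largest named class. Cirbp, the cold-inducible RNA-binding protein, was at 4384 and 4139 TPM. The SR proteins and hnRNPs, which choose splice sites and coat nascent transcripts, supplied 9 of the 30 most abundant genes with a symbol. The highest were srsf5 at 2673 and 2441, hnrnpab at 2692 and 2399 and hnrnpa1 at 2471 and 2512 TPM. The RNA helicases ddx39a (2152 and 2310.1 TPM) and ddx5 (1705 and 1751 TPM) and the export adaptor alyref (1776 and 1695 TPM) stood among the same 30. As a class, splicing factors, hnRNPs and RBM proteins were on in 134 of 139 cases (96.4%, beside 66.1% of protein-coding genes with a symbol). Those on had a median of 205 TPM, and the class held 7.39% ± 0.163 of TPM outside ribosomal RNA (7.28% and 7.51%). Ybx1, a cold-shock domain protein that packages stored messages, reached 1699 and 1834 TPM. Cirbp, ddx5, alyref and ybx1 were counted outside that class and its share.

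Other genes of the top 30 belonged to translation, growth and the cell cycle. The translation elongation factor gene eef1a1o, known as an oocyte form in Xenopus, was at 4501 and 4150.1 TPM, and eef1a1 at 2938 and 2977 TPM. Their expected counts (82068 and 75653, and 58068 and 58752) were whole numbers, so no fractional sharing of reads shows between them. How alike their sequences are was not examined. Prmt1, which methylates arginines of RNA-binding proteins and histones, had 2966 and 2501 TPM. Ornithine decarboxylase odc1, the entry enzyme of polyamine synthesis, had 2373 and 2120.4 TPM. A B-type cyclin, ccnb1.2, reached 2061 and 1984 TPM. The ADP/ATP carrier slc25a5 was at 1855 and 1784 TPM and glutamine synthetase glul at 1402 and 1679.8 TPM. The claudin cldn6.1 (2185 and 2257 TPM) and the adhesion molecule epcam (1702 and 1531 TPM) were the 2 genes of cell junctions in this group.

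Messages for the translation machinery were uniform in state but moderate in amount. Each of 77 cytosolic ribosomal protein genes was on (100%, beside 66.1% of protein-coding genes with a symbol). They lay between 54.3 TPM (rpl29) and 699.9 TPM (rps18), and the class held 2.38% ± 0.223 of TPM. Library 2 had more of it, 2.54% against 2.22%. As a share of expected counts, which do not correct for length, it was 0.477%. Translation factors held 2.94% in both libraries, more than the ribosomal proteins themselves, with 67 of 69 genes on. All 77 mitochondrial ribosomal protein genes and all 37 tRNA synthetase genes were on as well, at medians of 29.7 and 37.8 TPM. Histones with their acidic chaperones held 2.03% ± 0.0831. Replication-dependent histone messages lack a poly(A) tail, so in poly(A)-selected libraries their level here is not a measure of their amount in the tissue.

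Classes of proliferating cells were on nearly throughout. Cell cycle and mitosis genes were on in 105 of 111 cases (94.6%, beside 66.1% of protein-coding genes with a symbol). They held 1.80% ± 0.0281 of TPM, and DNA replication and repair genes were on in 79 of 83 (95.2%). Replication licensing genes were among the highest of that class, with mcm7, a subunit of the replicative helicase, at 1269.8 and 1369 TPM and cdt1 at 604 and 523 TPM. Genes of oxidative phosphorylation encoded in the nucleus were on in 92 of 95 cases (96.8%) and held 1.26% ± 0.0356, while 18 glycolysis enzyme genes held 0.210% ± 0.0198. By contrast with these, genes of junctions, adhesion and matrix were on in 65 of 195 cases (33.3%, beside the same 66.1%) yet held 1.69% ± 0.0551. Keratins, vimentin and lamins were on in 12 of 51 (23.5%) and held 0.477% ± 0.0282. Genes assigned to no class held 54.2% of TPM.

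**Figure D2:**
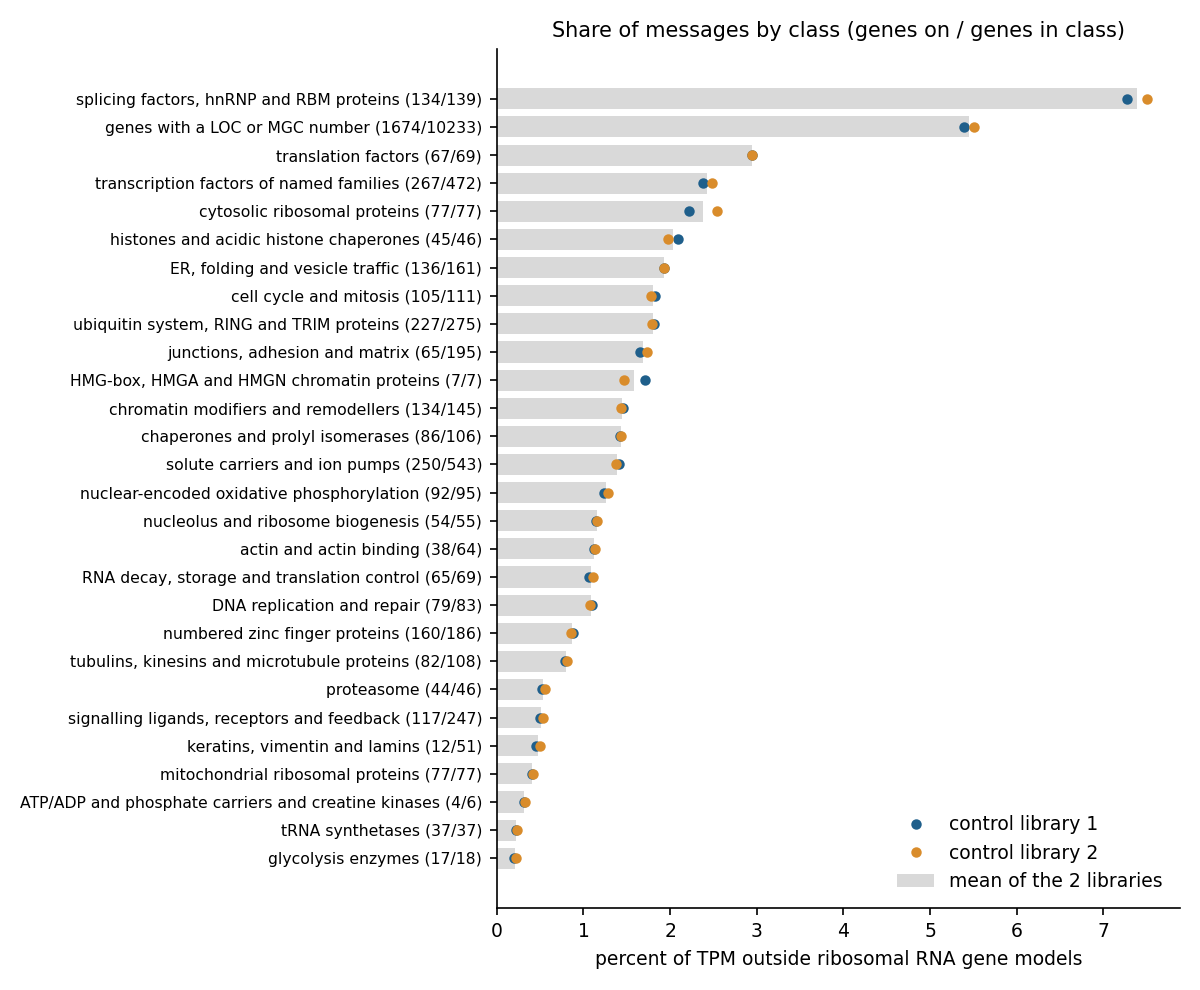
Share of TPM outside ribosomal RNA gene models for 28 classes less the unassigned genes: grey bars are means and points are the 2 libraries. Splicing factors, hnRNPs and RBM proteins stand far to the right at 7.39%, and the points of a class lie close together, with the widest gaps for cytosolic ribosomal proteins, HMG proteins and splicing factors.

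Transcription factors were led by pluripotency genes and BMP-responsive genes. Of 472 genes in named transcription factor families, 267 (56.6%) were on and 65 (13.8%) were off. The shares were 52.9% and 27.4% of all protein-coding genes, and 66.1% and 16.9% of those with a symbol. Beside the latter, which is the nearer set, these families were on less often. They held 2.43% ± 0.0796 of TPM, and the 15 highest held 44% of that. First came pou5f3.2 at 1073 and 1174 TPM, one of the Xenopus genes related to mammalian Oct4, which keep cells uncommitted. The other 2 copies followed, pou5f3.1 at 477 and 530.1 TPM and pou5f3.3, known as the maternal copy, at 136 and 129.8 TPM. The level of pou5f3.2 was 2.25 and 2.21 times that of pou5f3.1 and 7.90 and 9.04 times that of pou5f3.3.

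Id3, an inhibitor of basic helix-loop-helix factors and a direct BMP target, was second at 988 and 789 TPM. Sox3, a SoxB1 factor of early ectoderm and later of neural tissue, followed at 689.8 and 720.5 TPM. The insulator protein ctcf had 638 and 605 TPM. Foxi4.2, a forkhead gene of the animal ectoderm, had 576 and 649.9 TPM, which was 51.0% of the summed TPM of 44 forkhead genes. The zinc finger gene sall4, another pluripotency factor, was at 469 and 404 TPM.

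Further factors among the 15 highest were sox15 (311 and 422 TPM), atf1 (356 and 335 TPM), sp5l (347 and 324 TPM) and klf17 (334 and 313 TPM). Among pluripotency and maternal regulators, each of the 35 genes found in the files was on (100%, beside 66.1% of protein-coding genes with a symbol). Of these, 33 were at 10 TPM or more, and the list's median was 154 TPM. The highest was ctnnb1, which encodes β-catenin, at 1352 and 1335 TPM. The RNA-binding pluripotency gene lin28a had 241 and 184 TPM and its relative lin28b 26.6 and 24.9 TPM.

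Regulators of epidermis were on in 26 of 33 cases (78.8%, beside 66.1% of protein-coding genes with a symbol). Their median was 28.9 TPM, and none was off. Tfap2c and tfap2a, AP-2 factors needed for epidermis and neural crest, were at 475 and 457 and at 272 and 276 TPM. Tfap2e was low at 3.83 and 3.55 TPM, tfap2b was at 0.08 and 0.16 TPM and tfap2d had no count. The ventx genes, homeobox repressors that act downstream of BMP, split by subgroup. Ventx2.2 and ventx2.1 were at 408 and 418 and at 283 and 302 TPM, ventx1.1 and ventx1.2 at 71.4 and 88 and at 63.2 and 55.2 TPM, and ventx3.2 at 1.98 and 2.24 TPM. Expected counts of the ventx1 and ventx2 genes were fractional, such as 5876.33 for ventx2.2 and 793.71 for ventx1.1 in library 1. The division of reads among these similar genes is therefore uncertain.

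Grainyhead-like factors control epidermal barrier genes. Grhl3 had 237 and 189.8 TPM and grhl1 78.3 and 68.4 TPM, whereas grhl2 stayed just under the threshold at 0.98 and 0.93 TPM. In the Dlx family dlx5 carried 83.8% of the TPM, at 92.2 and 104, and dlx3, a marker of non-neural ectoderm, had 6.65 and 8.96 TPM. Gata2, an epidermal BMP target, was at 28.7 and 29.2 TPM, and gata3 was at 0.99 and 0.76 TPM. The basal cell factor tp63 was on at a low 2.5 and 2.62 TPM.

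Neural plate regulators were on in 23 of 30 cases (76.7%, beside 66.1% of protein-coding genes with a symbol), with a median of 5.31 TPM. Sox3 was the highest, followed by gmnn (geminin, an inhibitor of replication licensing that also promotes neural fate) at 611 and 479 TPM, sox11 at 221 and 245 TPM and sox2 at 212 and 201 TPM. Zic2, a zinc finger gene of the neural plate, was at 87.4 and 87.4 TPM. Otx1 and otx2, homeobox genes of the anterior head, were at 59.9 and 65.4 and at 16.7 and 17 TPM. The Iroquois genes irx1 and irx2 had 62.9 and 60.5 and 70.2 and 71.5 TPM, while irx3 had 4.98 and 5.8 TPM, irx4 0.15 and 0.22 TPM and irx5 no count. Other members of the list were low: pax6 at 1.27 and 1.31, six3 at 0.74 and 0.87, en2 at 0.02 and 0 and atoh7 at 0 in both libraries.

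In the neural crest and placode list 12 of 20 genes were on (60.0%, beside 66.1% of protein-coding genes with a symbol). Id3, which is shared with the BMP targets, made up 84.8% of the list's summed TPM. Apart from it the highest were the Ets factor ets1 at 55.6 and 42.6 TPM, the placodal gene six4 at 38.4 and 33.6 TPM and the growth regulator myc at 29.96 and 34.9 TPM. Pax8 was off at 0.02 and 0.06 TPM. The crest factors snai2 and sox10 were intermediate at 0.19 and 0.14 and at 0.06 and 0.11 TPM.

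**Figure D3:**
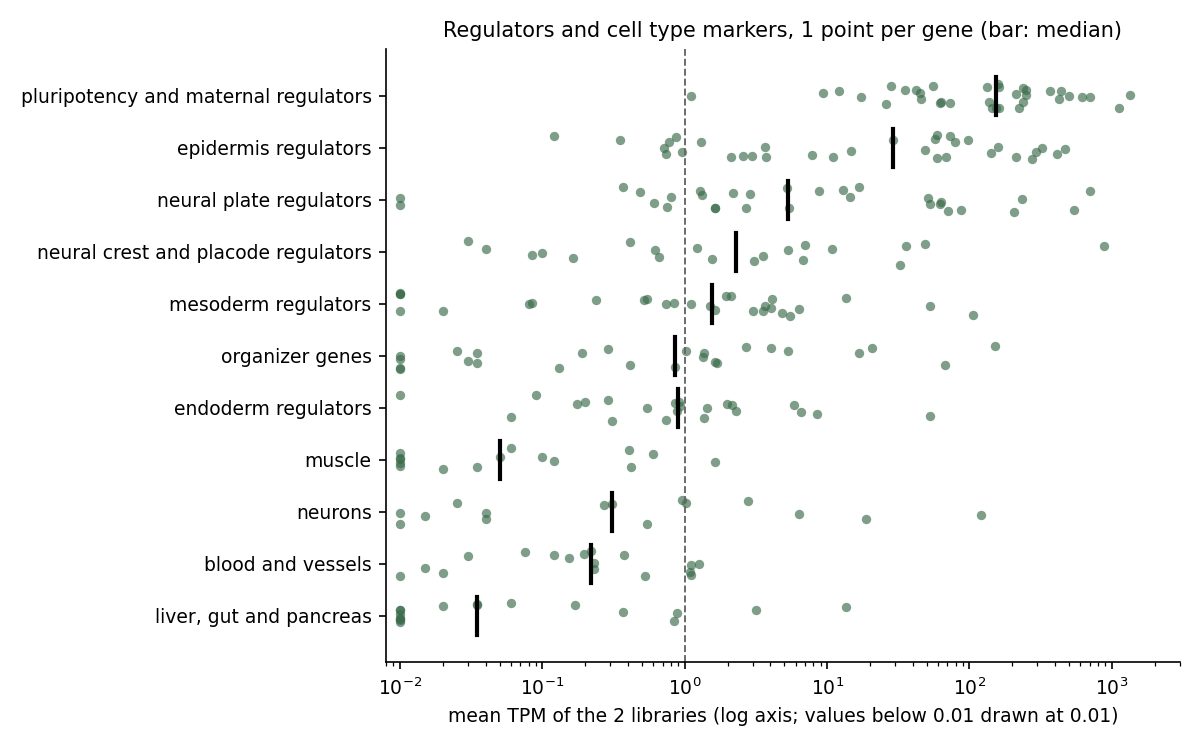
Mean TPM of each gene in 7 regulator lists and 4 lists of other cell types, on a log axis, with 1 point per gene and a bar at the list's median. Medians step down from 154 TPM for pluripotency and maternal regulators through 28.9 for epidermis to below 1 TPM for organizer, endoderm and the 4 differentiated lists.

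Mesoderm and endoderm regulators were mostly detected at low levels. Of 28 mesoderm regulators 15 were on (53.6%, beside 52.9% of all protein-coding genes and 66.1% of those with a symbol). Of these, 3 reached 10 TPM: the notochord homeobox gene not at 111 and 99.5 TPM, the T-box gene vegt at 49.8 and 56.5 TPM and cdx2 at 12 and 15.2 TPM. Brachyury (tbxt), the pan-mesodermal T-box gene, had 3.17 and 4.88 TPM and eomes 4.69 and 5.02 TPM. The bulk libraries cannot tell a few cells with much of a message from many cells with little. Members without a count in either library included msgn1, hand1, gata1 and meox2, and the cardiac gene nkx2-5 was at 0.04 and 0 TPM. The summed level of the list was 219 and 218 TPM, against 2949 and 2872 TPM for epidermis regulators.

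Among 25 organizer genes 11 were on (44%, beside 66.1% of protein-coding genes with a symbol) and 8 were off. The highest were sfrp2, a secreted Wnt inhibitor, at 145 and 159 TPM, and szl (sizzled, a BMP feedback inhibitor that in frogs marks the ventral side) at 67.6 and 66.8 TPM. Pkdcc.1 had 20.9 and 20.4 TPM. The organizer's own BMP antagonists were near the threshold: chrd.1 (chordin) at 1.87 and 1.49, nog (noggin) at 1.2 and 1.49 and fst (follistatin) at 2.31 and 3.04 TPM. Goosecoid (gsc) was at 1.37 and 0.68 TPM and the Wnt inhibitor frzb at 0 and 0.05 TPM.

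Of 22 endoderm regulators 8 were on (36.4%, beside 66.1% of protein-coding genes with a symbol), 13 were intermediate and bix1.1 was off. The count on was 12 without library 1, 8 without library 2, 12 at a threshold of 0.5 TPM and 5 at 2 TPM. Vegt, whose maternal message is known to be localised to the vegetal pole, was the single member at 10 TPM or more, and it supplied 59.5% of the list's TPM. Gata6 had 7.87 and 9.14 TPM, sox17b.1 6.98 and 6.16 TPM and mix1 6.49 and 5.29 TPM. The expected counts of sox17b.1 were fractional (106.52 and 94.29), so its share of reads beside similar genes is uncertain. Sox17a was at 1.66 and 2.3 TPM and foxa2 at 0.29 and 0.29 TPM.

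Germ plasm and vegetal transcripts were on in 15 of 19 cases (78.9%, beside 66.1% of protein-coding genes with a symbol), with a median of 11.7 TPM. The highest was plin2, a lipid droplet protein, at 177 and 165 TPM, followed by the germ-line helicase ddx4 at 57.9 and 46.3 TPM, vegt and trim36 at 48.7 and 40.8 TPM. Nanos1, a germ plasm message, was at 0.34 and 0.81 TPM.

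Beside the epidermis regulators of the labelled ectoderm, most listed markers of muscle, blood, gut organs and neurons were low. The notochord and hatching gland list went the other way, with 6 of 8 genes on (75%, beside 66.1% of protein-coding genes with a symbol). Its median was 2.85 TPM and its sums were 241 and 225 TPM, of which the homeobox gene not held 45.1%. None of 15 muscle genes was on (1, myod1, without library 2), and their sum was 3.77 and 3.08 TPM. One of 17 blood and vessel genes was on (tal1, 1.13 and 1.07 TPM), with sums of 6.12 and 7.35 TPM. The count was 3 without library 1 and 2 without library 2. For liver, gut and pancreas 2 of 17 were on, cdx2 and serpina1 (3.04 and 3.32 TPM), and 10 were off, including alb, apob and fga. Of 15 neuron genes 4 were on, led by stmn1 at 133 and 106 TPM and elavl3 at 17.9 and 19.6 TPM, while snap25 had no count. The mesoderm and endoderm messages above were present in both libraries, and their part in the other levels was not tested.

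In the lists for specialised cells of the larval skin, some regulators were on and several products of the differentiated cells had no count. For multiciliated cells 11 of 20 genes were on (55%), which is not above the 66.1% of protein-coding genes with a symbol. The ciliary regulators rfx2 and foxj1 were at 138 and 132 and at 40.9 and 46.5 TPM, and the tubulin tubb4b at 146 and 183 TPM. The program's inducer mcidas was off at 0.04 and 0.03 TPM, and the centriole gene ccdc78 had no count. For ionocytes 8 of 13 genes were on (61.5%), again not above that share. The proton pump subunit atp6v0d1 led at 67.6 and 57 TPM, and foxi1, their master regulator, stood at 51.7 and 66 TPM. The pendrin gene slc26a4.3 had no count and ca2 was at 0 and 0.09 TPM. For mucous and small secretory cells the secretory regulator xbp1 made up 89.7% of the list's TPM at 274 and 243, whereas itln1, otogl and tph1, products of the differentiated cells, had no count. The basal cell list had 1 of 7 genes on, tp63.

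Transcription factor families differed widely in how many members were on. All 7 E2f genes were on, led by e2f3 at 243 and 229.9 TPM and e2f7 at 144 and 133 TPM. Numbered zinc finger genes were on in 127 of 146 cases (87.0%), with a median of 16.2 TPM. Sox genes were on in 14 of 20 cases (70.0%), near the 66.1% of protein-coding genes with a symbol, and forkhead genes in 23 of 44 (52.3%). At the other end, 4 of 36 Hox genes (11.1%), 1 of 15 Nkx genes and 2 of 8 Pax genes were on. Hox genes that were on included hoxd1 at 3.93 and 3.22, hoxb3 at 3.39 and 1.99 and hoxc12 at 1.02 and 1.5 TPM. Another 21 Hox genes were intermediate.

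Several families were carried by 1 member. Of 13 Lim homeobox genes lhx5 had 95.7% of the summed TPM, at 287 and 252, and the organizer gene lhx1 had 3.86 and 4.17 TPM. Six4 had 96.7% of the TPM of its family, and six2, six3 and six6 were below 1 TPM in both libraries. Sall4 and sall1 (153 and 154 TPM) made up most of the Sall family, with sall2 at 0.08 and 0.12 TPM. Smad1 supplied 60.3% of the Smad family.

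At each step of BMP signalling some listed genes were on. The ligand bmp7.2 had 409.6 and 335 TPM and bmp4 114 and 106 TPM, so that bmp7.2 was 3.60 and 3.17 times as high. Bmp2, at 9.62 and 9.33 TPM, and admp, at 1.49 and 1.76 TPM, were also on. That made 4 of 8 ligand genes (50%, beside 66.1% of protein-coding genes with a symbol). Of the receptor and transducer genes 9 of 10 were on (90%). Smad1, the transducer of BMP signals, was at 382 and 357 TPM and smad9, a second such transducer, at 1.02 and 1.03 TPM, a ratio of 374 and 347. The type II receptor acvr2b had 73.2 and 73.4 TPM and the type I receptors acvr1 and bmpr1a 55.6 and 50.9 and 52.2 and 44.3 TPM, while bmpr1b was at 0.2 and 0.03 TPM. Among antagonists and feedback genes 15 of 17 were on (88.2%), or 11 at a threshold of 2 TPM. The target id3 held 56.1% of that list's TPM. Bambi, a decoy receptor, was at 200.0 and 228 TPM and the target id2 at 124 and 116 TPM.

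For Nodal signalling, the transducers and most receptors were on, and no gene named nodal was. Smad2 and smad3, the transducers, were at 62.9 and 61.8 and at 12.4 and 11.8 TPM. Their partner foxh1 was at 49.3 and 40.5 TPM. The co-receptor gene tdgf1.3 was at 333 and 244 TPM, and the type I receptor gene acvr1b was at 27.3 and 21.4 TPM. Nodal1, nodal2 and nodal6 were at 0 TPM in both libraries, nodal5 was at 0 and 0.06 TPM, nodal at 0.22 and 0.16 TPM and nodal3.1 at 0.38 and 0.46 TPM. Nodal genes occur in near-identical copies, so how reads were split among them is uncertain. The Vg1-related genes gdf1 and gdf3 had 4.19 and 2.52 and 5.38 and 4.28 TPM, and the feedback inhibitor lefty had 4.74 and 5.85 TPM. The activin subunit gene inhba was off at 0.01 and 0 TPM and inhbb was on at 3.32 and 2.94 TPM. In the whole list 16 of 25 genes were on (64%), which is not above the 66.1% of protein-coding genes with a symbol.

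In the Wnt pathway few ligand genes and most receptor genes were on. Of 21 Wnt genes 5 were on (23.8%, beside 66.1% of protein-coding genes with a symbol), or 3 at a threshold of 2 TPM, and 9 were off. Their summed level was 20.1 and 22.9 TPM. The highest was wnt5b at 7.83 and 8.86 TPM, then wnt11b, known for its maternal role in axis formation, at 4.25 and 4.9 TPM. Wnt2, wnt3, wnt7c and wnt8b had no count, and wnt8a, a ligand of the ventrolateral mesoderm, was at 0.53 and 2.24 TPM. Of 18 receptor genes 15 were on (83.3%), summing to 632 and 660.3 TPM. Fzd7, a maternal Frizzled, was at 182 and 179.8 TPM, the co-receptor lrp6 at 71.7 and 71.3 TPM, the receptor kinase ptk7 of planar polarity at 113 and 129 TPM and ryk at 84.5 and 88.4 TPM.

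Inside the cell the Wnt pathway was carried by a few genes. In the list of transducers and inhibitors 17 of 29 genes were on (58.6%), which is not above the 66.1% of protein-coding genes with a symbol. Among transducers and inhibitors ctnnb1 was followed by sp5l, a Wnt target, and tcf7l1, the Tcf factor that represses targets in the absence of signal, at 239 and 261 TPM. Tcf7l1 was 46 and 41.3 times as high as lef1, at 5.2 and 6.32 TPM. The kinase gsk3a (185 and 171 TPM) was 15.8 and 14.1 times as high as gsk3b (11.7 and 12.2 TPM). Of the secreted inhibitors sfrp2 was at 145 and 159 TPM, sfrp5 had no count, frzb was off and dkk1 was at 0 and 0.26 TPM.

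FGF genes had a similar layout. Of 18 ligand genes 4 were on (22.2%, beside 66.1% of protein-coding genes with a symbol). These were fgf12 at 5.71 and 4.33, fgf8 at 3.84 and 4.93, fgf2 at 1.56 and 4.38 and fgf14 at 2.67 and 3.03 TPM. Fgf12 and fgf14 belong to a subfamily that acts inside the cell. Fgf1 and fgf6 had no count, and fgf4 and fgf3, ligands of the mesoderm, were at 0 and 0.41 and at 0.25 and 0 TPM. Among receptors and feedback genes 16 of 22 were on (72.7%, beside the same 66.1%). The receptors fgfr4, fgfr1 and fgfr2 were at 94.2 and 97, at 75.4 and 92.5 and at 43 and 69 TPM, and fgfr2 was lower in library 1. The kinase map2k1 had 185 and 180.1 TPM and the Ets factor etv1 119 and 101 TPM, whereas etv4 was off at 0.05 and 0 TPM.

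Notch, retinoic acid and Hedgehog genes were on in 17 of 20 (85%), 11 of 17 (64.7%) and 9 of 12 (75%) cases. The share was 66.1% for protein-coding genes with a symbol, and the retinoic acid list was not above it. The Notch target hes4 had 161 and 169.8 TPM, the glycosyltransferase lfng 93.1 and 92.3 TPM, the coactivator maml1 81.1 and 88.1 TPM and the receptor notch3 52.5 and 54.5 TPM. In the retinoic acid pathway the retinol dehydrogenase rdh10 (158 and 179.5 TPM), the receptor rarg (127 and 138 TPM) and the degrading enzyme cyp26a1 (113 and 125 TPM) led. The synthesising enzyme aldh1a2 had 72.8 and 56.1 TPM, while aldh1a1 and aldh1a3 were off. For Hedgehog the transducer smo was at 32.8 and 28.2 TPM, and the ligands shh and ihh were at 0.48 and 0.34 and at 0.56 and 0.99 TPM.

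**Figure D4:**
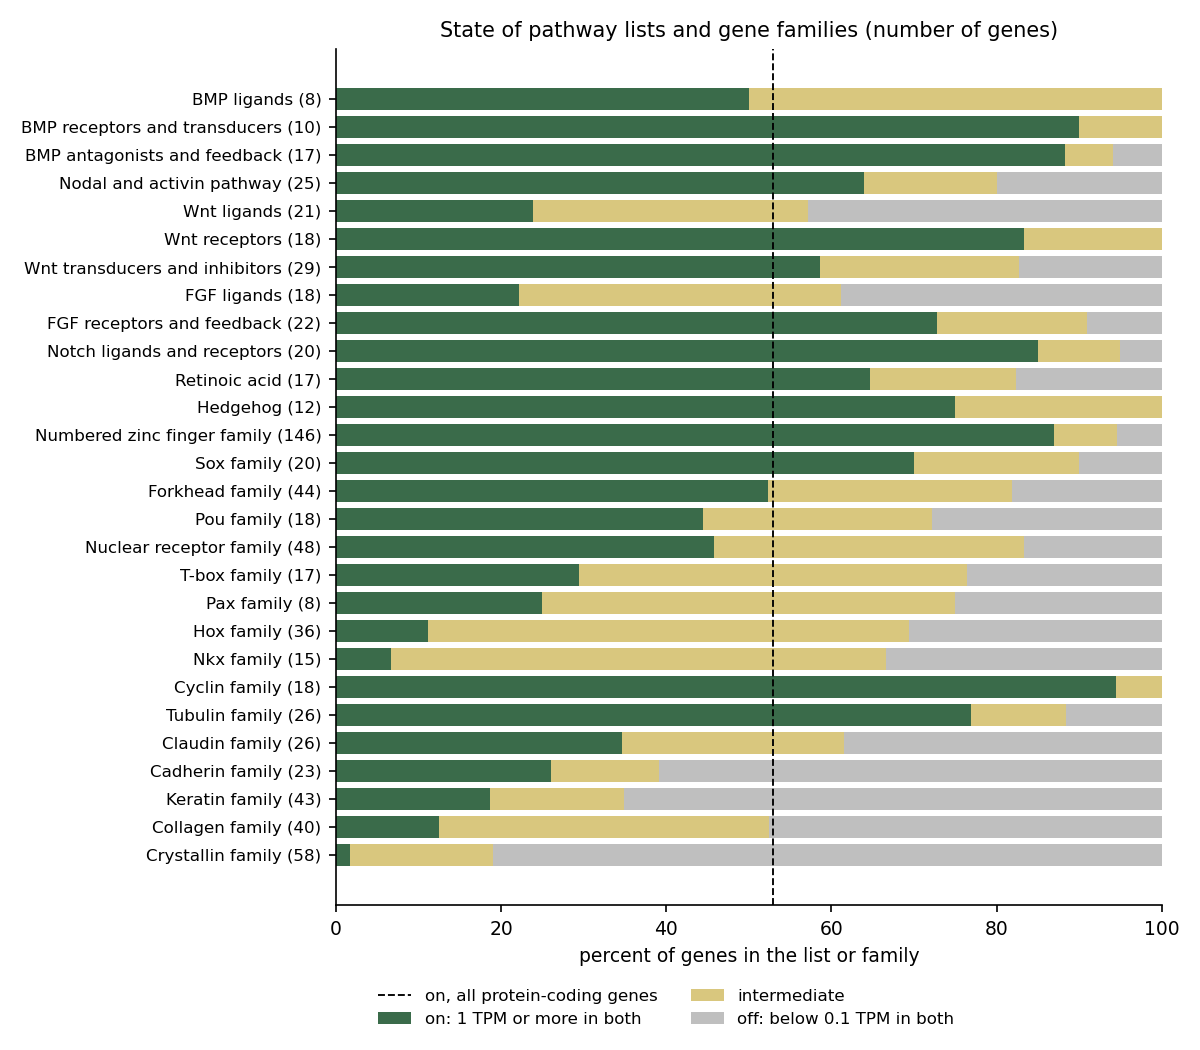
Percent of genes on (green), intermediate (yellow) and off (grey) in 12 pathway lists and 16 gene families, with the number of genes in brackets. A dashed line marks the 52.9% of protein-coding genes that were on, a share that was 66.1% for those with a symbol. Wnt and FGF ligands lie left of that line, and the Wnt receptor list and the FGF receptor and feedback list lie right of it. Hox, Nkx and crystallin genes have the shortest green bars together with collagens.

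Some genes of epithelial adhesion were among the highest of the control caps. Of 16 cadherin and catenin genes 8 were on (50%, beside 66.1% of protein-coding genes with a symbol) and 8 were off. Cdh3, called C-cadherin in Xenopus and supplied by the mother, was at 558 and 502 TPM, 17.3 and 15.6 times as high as cdh1 (E-cadherin, 32.2 and 32.2 TPM). Cdh2 (N-cadherin), which marks the neural plate, was at 2.11 and 3 TPM, and the vascular cadherin cdh5 was off at 0.02 and 0.02 TPM. The catenins ctnnd1 and ctnna1, which link cadherins to the cell cortex, had 342 and 311 and 319.5 and 279.5 TPM. Desmosome and tight junction genes were on in 26 of 27 cases (96.3%, beside the same 66.1%).

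Claudins, which seal tight junctions, were few but high. Of 26 claudin genes 9 were on (34.6%, beside 66.1% of protein-coding genes with a symbol). Cldn6.1, cldn6.2 (1378 and 1466 TPM) and cldn7 (1187 and 1303 TPM) exceeded 1000 TPM. The division of reads between cldn6.1 and cldn6.2 is uncertain, since expected counts share reads among similar genes. Another 10 claudin genes were off. Gap junction genes showed 1 dominant member: gja7, at 112 and 126 TPM, held 96.8% of the TPM of the connexin family, and no other of 19 genes in that family was on. Gja1 (1.05 and 0.97 TPM) and gjb2 (0.97 and 1.01 TPM) sat at the threshold, and 2 genes were on with either library left out. Cx38, the connexin of Xenopus oocytes and early embryos, whose symbol lies outside the family's naming pattern, was at 4.35 and 4.04 TPM.

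Among keratins, forms of krt8 and krt18, the pair typical of simple epithelia in vertebrates, were high. Of 43 keratin genes 8 were on (18.6%, beside 66.1% of protein-coding genes with a symbol) and 28 were off. Krt7 was at 603 and 671 TPM, krt8.1 at 441 and 459 TPM and krt18.1 at 436 and 454 TPM. Krt70 and krt12.3 followed at 413 and 422 and at 356 and 389 TPM. Krt12.5, krt12.6, krt15.1 and krt61 were off, with at most 0.08 TPM in a library. Lamin B1 (lmnb1), of the nuclear envelope, was at 1112 and 1055 TPM.

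Of 33 integrin and matrix genes 16 were on (48.5%, beside 52.9% of all protein-coding genes and 66.1% of those with a symbol). The integrin chain itgb1 led at 249.9 and 231 TPM, followed by the syndecans sdc4 (169.6 and 164 TPM) and sdc2 (136 and 149 TPM) and by fibronectin fn1 at 114 and 112 TPM, the main matrix protein of the gastrula. Of 40 collagen genes 5 were on, the highest being col18a1 at 14.2 and 16.7 TPM, and col1a1 and col2a1 were off.

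Nearly all listed genes of oocyte functions and maternal RNA control were on at stage 10.5. The libraries cannot tell message laid down by the mother from new transcripts. Of these 45 genes 44 were on (97.8%, beside 66.1% of protein-coding genes with a symbol), with a median of 77.6 TPM, and ybx3 was off. Besides eef1a1o, ccnb1.2 and ybx1, the list was led by the histone chaperone npm1 at 1515 and 1302 TPM. The oocyte kinase mos was at 37.4 and 37.7 TPM, the translational repressor zar1l at 321 and 342 TPM and its relative zar1 at 24.7 and 25.4 TPM. Cpeb1, a regulator of cytoplasmic polyadenylation, differed between libraries at 12.7 and 3.92 TPM.

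Chromatin genes combined oocyte and somatic forms. H1-8, the oocyte linker histone, was at 257 and 248 TPM. H1-1 was at 406 and 441 TPM. The replacement histone H3.3 was encoded by h3-3b, h3f3b and h3-3a at 1511 and 1435, at 1199 and 1025 and at 608 and 680.1 TPM, and their shares are uncertain where the sequences coincide. The maintenance methyltransferase dnmt1 had 80.7 and 76 TPM and its recruiter uhrf1 240.5 and 196 TPM. The de novo enzyme dnmt3a was at 0.64 and 0.53 TPM, so that dnmt1 was 126 and 143 times as high, and the demethylase gene tet2 was off.

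In the list of glycolysis enzymes and glucose transporters 22 of 25 genes were on (88%, beside 66.1% of protein-coding genes with a symbol). Lactate dehydrogenase was represented by ldhb (299 and 329 TPM), at 142 and 112 times the level of ldha (2.1 and 2.93 TPM). The aldolase genes aldoc and aldoa were at 201 and 199 and at 169 and 213 TPM. Enolase eno1 had 182 and 208 TPM. The glucose transporter slc2a3 had no count, whereas slc2a1 and slc2a2 were at 74.6 and 83.1 and at 88.8 and 73.9 TPM. Glucokinase gck was off.

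The 2 libraries ranked genes almost identically. Over the 11982 genes on outside ribosomal RNA, log2(TPM + 0.1) correlated at r = 0.990 and rho = 0.992 across genes, which are not independent replicates. Library 2 lay lower by a median of 0.11 on the log2 scale (median ratio -0.11), and it was also the library with the larger share of ribosomal RNA, whose part in the shift was not tested. After removal of that shift 94.9% of genes agreed within 1.5-fold and 98.7% within 2-fold, and 157 genes differed by more. The common biological coefficient of variation from edgeR was 0.105. The median absolute log2 ratio fell with level, from 0.28 between 1 and 2 TPM, where counting error alone gave 0.21, to 0.12 between 100 and 300 TPM, where it gave 0.02.

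Among symbol-bearing genes that averaged at least 10 TPM, a small set differed more between the 2 control libraries. The largest difference by that rule was in c3ar1, a complement receptor, at 33.8 and 98.5 TPM, 3.15-fold after centring. Next came pdk4, a kinase that restrains pyruvate oxidation, at 12.3 and 30.6 TPM (2.68-fold), nt5c3a at 8.82 and 21 TPM (2.57-fold) and ccng1, a cyclin, at 38.8 and 90.4 TPM (2.53-fold). The apelin receptor aplnr, a gene of mesoderm and vessels, was at 20.2 and 38.5 TPM. In the opposite direction, under the same limits, the histone h2aj was at 70.04 and 29.7 TPM (2.18-fold), the TATA-binding protein tbp at 34.6 and 16.6 TPM and the uracil glycosylase ung at 19.7 and 9.42 TPM (1.93-fold each). Expected counts of h2aj (238.23 and 108.38) and h2ac16 (53.19 and 113.85) were fractional. Reads were thus shared among similar genes, and the levels of these histone genes are uncertain. Some genes outside these limits differed more, such as cpeb1 below 10 TPM and the small nucleolar RNA gene LOC116409351 (164 and 28.1 TPM), both higher in library 1. Another gene of that RNA type, LOC116408494, was higher in library 2 (62.8 and 133 TPM). In libraries selected for poly(A) the levels of such RNAs are no measure of their amount. The genes above were picked as the extremes of this pair, so their differences are a description.

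**Figure D5:**
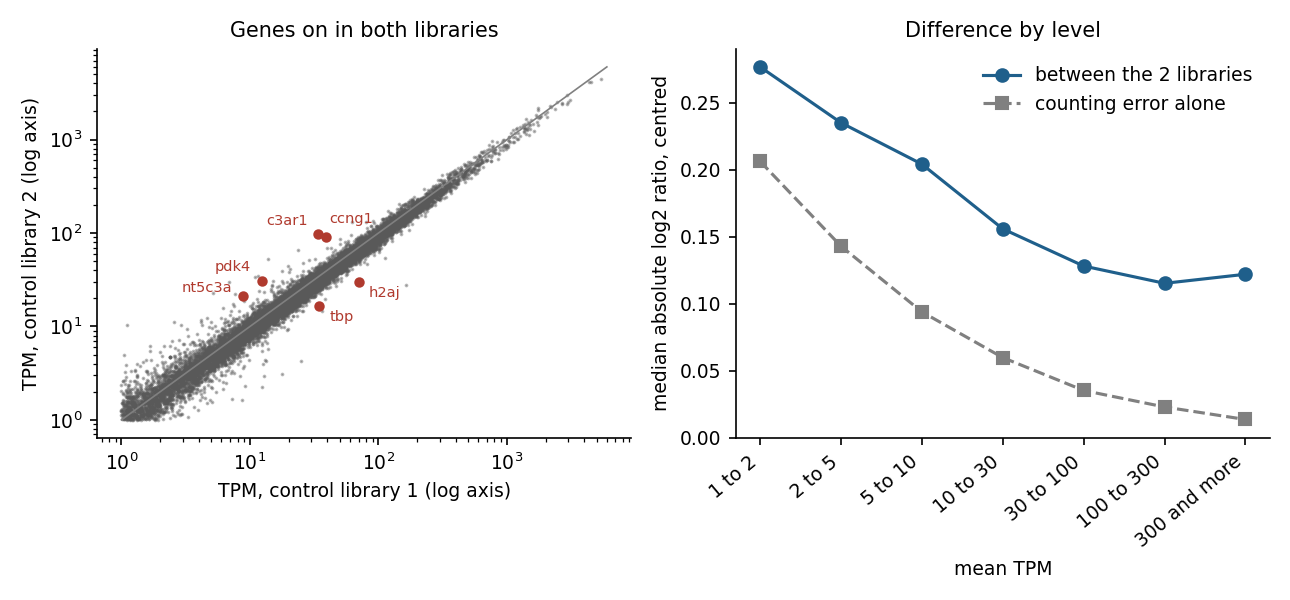
Left, TPM of 11982 genes on in both control libraries, on log axes, and in red 6 of the most different symbol-bearing genes that averaged at least 10 TPM. Right, median absolute log2 ratio between the libraries by mean TPM (blue), which stays above the value that counting error alone gives (grey) in each of 7 bins.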

How the data were processed

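Expected counts and TPM values per gene were taken as given from the deposited tables of the control MO libraries. The expected counts and the TPM values were deposited by the authors per the file headers, and the column layout is that of RSEM. The FPKM that the authors deposited served as an alternative only, and the deposited gene length (unit other than expression, in bases) for descriptions. STAR (2.7.3a), RSEM (1.3.3), R (4.1.2) and edgeR (3.36.0) are listed, without roles, per the submitters' processing notes. A genome build and a strand setting are not given in the sources used here, so overlapping and antisense genes cannot be told apart, and mitochondrially encoded genes were not analysed here.

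The 28850 genes were typed with the RefSeq table of UCB_Xtro_10.0, by accession for 25856 and by symbol for 674, which was used for names and types. Ribosomal RNA models (463) were left out of shares and ranks. Classes (28), lists (38) and families (51) were drawn up from symbols, with earlier results of these data known, and class patterns were tightened after their matches were seen. RSEM expected counts were rounded for the coefficient of variation (edgeR 4.0.16 in R 4.3.3, TMM, intercept only), a step checked on simulated data. A fractional expected count marks reads shared among similar genes, as also for krt12.3, hba-l4, sall1 and fgf2. The level of such a gene is uncertain. Tables were made with pandas 2.3.3. Ratios used no pseudocount, correlations a pseudocount of 0.1 TPM. The number of libraries limits the precision, and floors cover counting error only.

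Named genes were the 30 most abundant with a symbol, the 4 highest and up to 4 off members of each list, the 10 most different between libraries in each direction at a mean of 10 TPM or more, the 15 highest transcription factors, and members of families of at most 12. Other genes, the ratios between pairs and the uroplakin and hyaluronan synthase group were chosen after their values were seen. Alternatives were other thresholds, units, pseudocounts, scalings and each library left out. Some values are not reported here.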

Additional observations from a re-analysis of the deposited data

How the results depend on the processing

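No paired analysis was possible because 1 group of 2 libraries was described and no test was run. The number of protein-coding genes on (11538) ranged from 10490 (1 FPKM in both) to 12920 (10 expected counts in both), and from 11735 to 11783 when each library was left out. Across the lists 433 genes were on, with a range of 392 (2 TPM) to 473 (0.5 TPM), and 442 to 443 with a library left out. The share of splicing factors, hnRNPs and RBM proteins moved from 7.39% to 5.54% of expected counts, to 5.48% with ribosomal RNA kept and to 6.66% without the 10 most abundant genes, and ran from 7.28% to 7.51% with a library left out. Of the 30 most abundant genes 16 stayed by expected counts, which do not correct for length, 30 by FPKM and 27 to 29 with a library left out. The correlation was 0.992 with a pseudocount of 1, 0.988 with no filter and 0.987 from 10 TPM. The coefficient of variation was 0.111 with no filter and 0.0974 from 10 TPM. Of 89 counts for lists and families, 13 moved by over 1.5 times at 0.5 TPM, 11 at 2 TPM 5 with TPM rescaled without ribosomal RNA, 5 without library 1 and 4 without library 2. With a library left out, the lists or families that moved were connexins (list and family), blood and vessels, muscle, Gata (2 to 4) and crystallins. Of 28 class shares 25 moved beyond 1 SD as shares of expected counts. Depth limits the off calls, since a count of 0 allowed up to 3 counts.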

Other observations

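Uroplakins and hyaluronan synthases stand in none of the lists above and were picked after their values had been seen. Uroplakins are membrane proteins of apical surfaces, best known from the mammalian bladder. All 5 that were picked were on, beside 66.1% of protein-coding genes with a symbol, and that count was known when they were picked. Upk1a was at 451 and 473 TPM, upk3a at 433 and 474 TPM and upk1b at 308 and 279 TPM in libraries 1 and 2. Upk2 and upk3b were lower, at 126 and 109.8 TPM and at 102 and 78.3 TPM. Has1, a hyaluronan synthase, was at 769 and 972 TPM, 65.2 and 88.8 times the level of has2 (11.8 and 10.9 TPM), and has3 was at 0.47 and 0.5 TPM.

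Of 2356 long non-coding RNA genes 338 (14.3%) were on, beside 52.9% of protein-coding genes. Their median level when on was 3.72 TPM, and 1 of them, LOC100493542, was at 660.2 and 749 TPM. None of 187 microRNA and 53 transfer RNA gene models had a count. Their median lengths were 22 and 73 bases and the libraries were selected for poly(A), so this is no measure of their amount.

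Single members of families of specialised tissues stood out. The globin-related gene hba-l4 was at 70.8 and 61.5 TPM, 93.8% of the summed TPM of 12 globin genes, and the next, hba1, was at 0.65 and 1.85 TPM. Crybg1 was at 35.9 and 28.7 TPM and was the single crystallin-family gene on out of 58 (2 without library 1, when cryba2, at 0.74 and 1.44 TPM, was added). Among 83 olfactory, taste and vomeronasal receptor genes 2 were on (2.41%, beside 66.1% of protein-coding genes with a symbol). These were or52d1 at 8.25 and 8.83 TPM and or51e1 at 1.3 and 2.4 TPM.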
